A study of Mus musculus with 21 samples.

Results

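Heat shock proteins and their J-domain partners were followed across both experiments of a mouse hippocampus RNA-seq series on circulating CD8+ T cells. Members were chosen by gene name alone: symbols of the Hspa, Hspb, Hspd, Hspe, Hsph and Hsp90 series, and of the numbered Dnaja, Dnajb and Dnajc series. This gave 72 genes of the 24411 in each deposited table. In the transfer experiment, male wild-type mice aged 4 months were given CD8+ T cells through the tail vein. In the aged T mice (5 libraries), the cells came from spleen and blood of C57BL/6J donors 22 to 28 months old. In the young T mice (6 libraries), the donors were 3 to 4 months old. All of these recipients were B6.SJL-Ptprca Pepcb/BoyJ mice, and all had been injected with a CD8a antibody on day -11 and day -7 to remove their own CD8+ T cells. In the depletion experiment, male wild-type mice aged 22 to 24 months were injected every 4 days. The injections held that CD8a antibody (5 libraries), or rat IgG2b as its isotype control (5 libraries). The hippocampus of 1 hemisphere was taken after perfusion, so each library is bulk tissue, in which fewer cells of a type and less RNA per cell cannot be told apart.

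Heat shock proteins are molecular chaperones that keep other proteins folded. HSP70 proteins bind unfolded stretches of a client in cycles of ATP use, J-domain proteins hand them the client and start the ATP step, HSP110 proteins release the spent nucleotide, and HSP90 proteins finish selected clients such as kinases and receptors. The small heat shock proteins hold unfolded clients without ATP, and HSP60 with HSP10 folds proteins inside mitochondria. In neurons the constitutive HSP70 with auxilin strips clathrin coats from endocytic vesicles, and a cysteine string protein guards the synaptic vesicle fusion machinery. Heat shock factor 1 switches on the stress-inducible members through the heat shock element, and the unfolded protein response switches on the members of the endoplasmic reticulum.

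The libraries held 12361933 to 15055422 reads in aged T mice and 11232442 to 14911138 in young T mice. With the CD8a antibody they held 9957822 to 12136146 reads, and with IgG2b 11103024 to 14375029. All 9 hippocampus markers listed were detected in every library. The same was true of all 10 choroid plexus markers, so detection alone could not verify the tissue label. Summed hippocampus markers ran from 7634 to 12119 in the transfer libraries and from 6442 to 8924 in the depletion libraries. Summed choroid plexus markers varied more, from 2334 to 54216 and from 860 to 32565. Of 8 T cell markers listed, 6 are in the tables, and their summed normalized count was 0 to 5 in aged T mice, 1 to 8 in young T mice, 1 to 15 with the CD8a antibody and, with IgG2b, 0 to 10. The 72 members together took 0.988% to 1.41% of a library's reads.

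RefSeq promoter windows (build GRCm38.p6, 250 bases before to 50 after the annotated start) were found for 59 of the 72 members. The following stretches, each the 250 bases before the start, are printed because they carry matches to 1 of 2 control elements. The heat-inducible and endoplasmic reticulum groups used below are fixed lists and were not made from these matches. The first 3 stretches belong to stress-inducible genes. Capitals mark the heat shock element, in Hspe1 the overlapping matches to GAANNTTCNNGAA and in Hspa1a and Hspa1b the shorter GAANNTTC.
Hspe1 (chr1:55087898-55088147, plus strand): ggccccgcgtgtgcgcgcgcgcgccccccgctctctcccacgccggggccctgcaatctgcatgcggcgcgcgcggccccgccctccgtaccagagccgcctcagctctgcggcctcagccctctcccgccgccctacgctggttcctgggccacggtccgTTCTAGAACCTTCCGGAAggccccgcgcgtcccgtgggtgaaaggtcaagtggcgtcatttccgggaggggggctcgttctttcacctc
Hspa1a (chr17:34972157-34972406, minus strand): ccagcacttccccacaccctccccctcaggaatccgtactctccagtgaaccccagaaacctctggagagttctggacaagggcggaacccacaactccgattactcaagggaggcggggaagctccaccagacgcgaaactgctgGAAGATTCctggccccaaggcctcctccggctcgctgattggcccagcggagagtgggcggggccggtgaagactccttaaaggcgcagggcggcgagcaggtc
Hspa1b (chr17:34959239-34959488, minus strand): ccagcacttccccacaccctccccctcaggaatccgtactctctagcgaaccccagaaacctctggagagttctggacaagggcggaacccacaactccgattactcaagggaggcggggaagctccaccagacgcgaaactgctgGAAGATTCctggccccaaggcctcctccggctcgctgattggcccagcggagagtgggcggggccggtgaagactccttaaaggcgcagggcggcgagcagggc
The motif GAANNTTCNNGAA, searched on both strands, occurred in 0.603% of all 32851 windows, or 0.662% of genes, and in 4 of the 59 members (6.78%), which were Dnajb6, Hspd1, Hspe1 and Hsph1. Its part GAANNTTC occurred in 9.04% of genes and in 13 of the 59 members (22.0%), those 4 included. Its other part, TTCNNGAA, occurred in 9.6% of genes and in 6 of the 59 members (10.2%), close to the share of all genes. Hspd1 (HSP60) and Hspe1 (HSP10) are read in opposite directions from the same stretch. Their windows overlap by 285 bases, so the marked element before Hspe1 is also the one before Hspd1. Hspa1a and Hspa1b, the stress-inducible HSP70 copies, have the same base at 247 of the 250 positions printed. The authors' read assignment between these near-identical copies is not given in the sources used here, so a value of either copy alone is uncertain.

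The next 3 stretches belong to chaperones of the endoplasmic reticulum, and capitals mark the ER stress response element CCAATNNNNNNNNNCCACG, read on either strand.
Hspa5 (chr2:34771840-34772089, plus strand): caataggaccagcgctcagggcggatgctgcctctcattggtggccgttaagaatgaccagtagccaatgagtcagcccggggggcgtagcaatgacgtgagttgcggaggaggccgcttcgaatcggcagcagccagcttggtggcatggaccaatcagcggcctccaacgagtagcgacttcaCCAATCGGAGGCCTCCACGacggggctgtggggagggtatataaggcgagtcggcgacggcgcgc
Hsp90b1 (chr10:86705445-86705694, minus strand): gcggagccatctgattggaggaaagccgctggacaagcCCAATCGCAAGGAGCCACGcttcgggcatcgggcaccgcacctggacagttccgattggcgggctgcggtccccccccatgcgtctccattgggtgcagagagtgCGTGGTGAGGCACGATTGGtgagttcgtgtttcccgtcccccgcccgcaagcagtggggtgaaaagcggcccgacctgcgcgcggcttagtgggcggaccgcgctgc
Dnajc3 (chr14:118937682-118937931, plus strand): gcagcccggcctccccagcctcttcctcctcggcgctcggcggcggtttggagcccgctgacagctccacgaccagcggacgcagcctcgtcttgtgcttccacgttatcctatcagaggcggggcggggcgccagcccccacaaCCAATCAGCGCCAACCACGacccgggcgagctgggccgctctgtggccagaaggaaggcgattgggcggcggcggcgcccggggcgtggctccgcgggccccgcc
This element occurred in 0.119% of all windows, or 0.137% of genes, and among the 59 members these 3 held it. Hsp90b1 held it at 2 places, on opposite strands. A match describes the letters of the window and is no measure of factor binding.

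By level, the family was dominated by 3 cytosolic chaperones. Levels between genes are given as normalized counts per kilobase of the longest GENCODE transcript, as mean ± SD over all libraries of an experiment. In the transfer experiment (11 libraries) Hsp90ab1, the constitutive HSP90, stood at 11744 ± 1327 per kilobase. Hspa8, the constitutive HSP70, stood at 8928 ± 774 per kilobase and Hsp90aa1, the inducible HSP90, at 6229 ± 805. Hsp90b1 (GRP94), the HSP90 of the endoplasmic reticulum, followed at 1482 ± 169 per kilobase. The step between Hsp90aa1 and Hsp90b1 was the only one of 63 between neighbours in the order where the ranges over libraries did not overlap, and the same held in the depletion experiment. There, in 10 libraries, those 4 genes stood in the same order, at 10757 ± 1178, 8950.0 ± 1388, 5914 ± 577 and 1354 ± 126 per kilobase. The 2 tables were normalized apart, so no level was tested between them. At the low end, 16 tested members in the transfer experiment and 18 in the depletion experiment lay under 100 per kilobase, among them Hspb6 (HSP20) at 19.3 ± 4.71 and 17.4 ± 8.27 per kilobase.

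Of the 72 members, 64 reached a mean normalized count of 10 and were tested in each experiment. The same 8 fell short in both: Dnajb7, Dnajb8, Dnajb13, Dnajc22, Hspb2, Hspb3, Hspb7 and Hspb9. The highest of them were Hspb2 and Dnajb13 in the transfer experiment, with mean normalized counts of 8.42 and 7.37, and Hspb3 and Hspb2 in the depletion experiment, with 7.93 and 4.75. Just above the limit stood Dnajb3 and Hspb6, with 17.5 and 38.3 in the transfer experiment and 23.5 and 34.4 in the depletion experiment. Differences below are log2 differences of normalized count + 1, with aged T minus young T in the transfer experiment and CD8a antibody less IgG2b in the depletion experiment, from limma with Benjamini-Hochberg adjustment over all genes tested. This scale understates the change of weakly expressed genes.

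The first comparison asked what T cells of aged donors do to a young hippocampus, set against T cells of young donors. No chaperone passed the threshold of an adjusted p under 0.05. That was so of every gene in this comparison, since limma called 0 of 14162 genes (0.0%) and DESeq2 0 of 18323 (0.0%). The smallest adjusted p among the 64 members was 0.600 by limma and 0.386 by DESeq2, and edgeR and limma-voom also called 0. At an unadjusted p under 0.05 by limma, 3 members lay higher, against 4.29% of all genes tested, and 0 lay lower, against 3.96%. The number of members at that level was 2 by edgeR, 4 by limma-voom and 6 by DESeq2. Of the 64 members, 33 had a difference below 0, where 51.0% of all genes did. Their median difference was -0.01, beside -0.00 for all 14162 genes, and it ran from -0.02 to 0.03 with single libraries left out, above 0 for 6 of them.

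**Figure D1:**
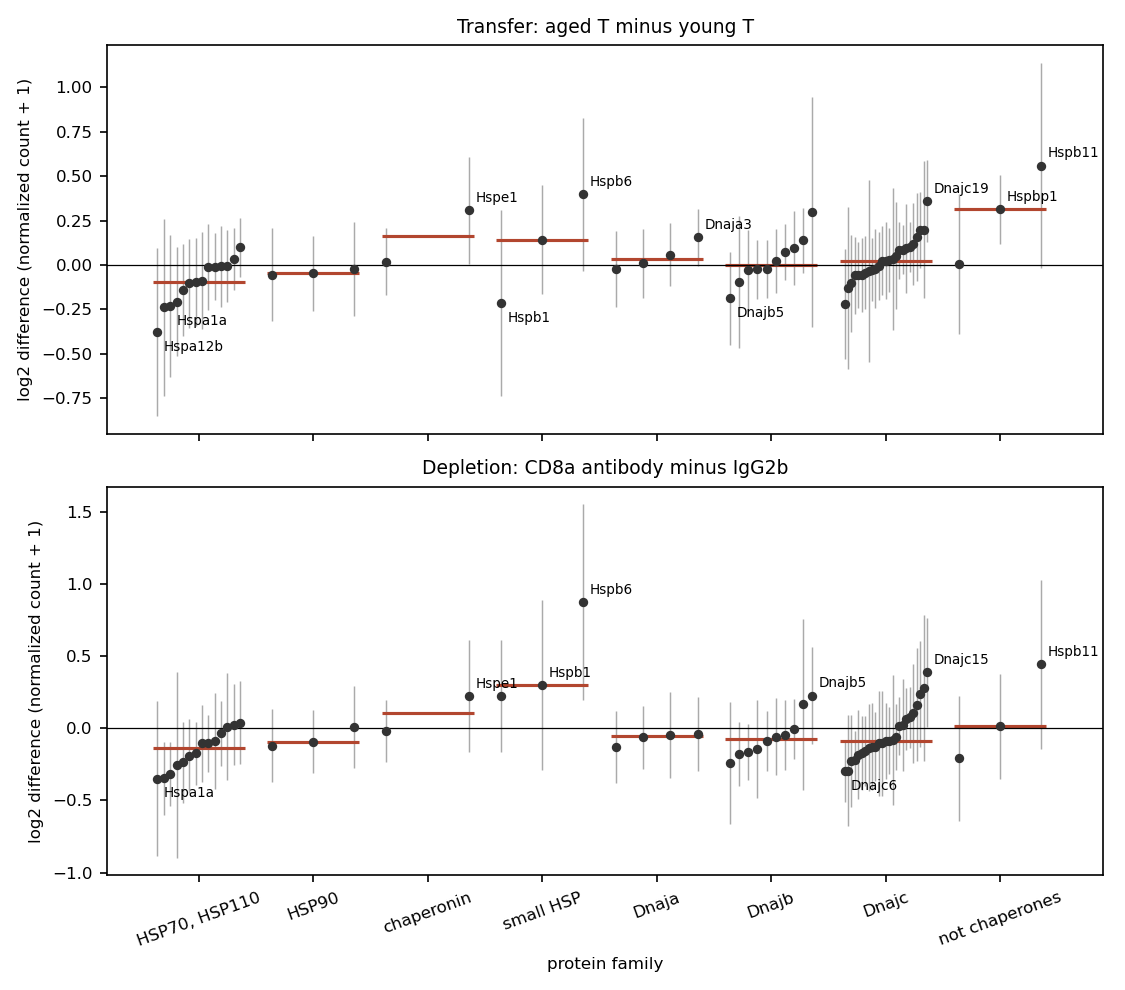
Log2 difference of normalized count + 1 for the 64 tested members by protein family (upper panel, aged T minus young T; lower panel, CD8a antibody minus IgG2b), where points are members, grey lines are limma's 95% intervals, red bars are family medians, and not chaperones marks the 3 symbols that only share the name pattern. No member passed an adjusted p of 0.05 in either panel; Hspb6 lies highest in the lower panel, at 0.88.

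Among the HSP70 and HSP110 members, 12 of 14 had a difference below 0 in aged T mice, with a median of -0.09, and none passed the test. The counts of the inducible copy Hspa1a were 271, 317, 207, 336 and 239 in aged T mice, against 185 to 415 with a median of 349.6 in young T mice. Its means were 274 ± 53.3 and 327 ± 82.9 normalized counts (SD, n = 5 and 6), a difference of -0.23 (SE 0.19). All 5 aged T libraries lay below the young T median, and the groups overlapped, with young T replicate 3 the lowest library of the experiment. The difference was -0.14 without aged T replicate 3, -0.15 without young T replicate 5 and -0.39 without young T replicate 3. With both copies summed before the fit, the difference was -0.24 (limma adjusted p = 0.732). Hspa8 averaged 28086 ± 2142 in aged T mice and 28287 ± 2876 in young T mice, a difference of -0.01 with a 95% interval of -0.24 to 0.22. Hspa5 (BiP), the HSP70 of the endoplasmic reticulum, and Hspa9, that of mitochondria, differed by -0.01 and -0.01. The lowest value of the family was that of Hspa12b, a divergent HSP70 of endothelial cells, at -0.38 (SE 0.22) with a limma p of 0.11 unadjusted and 0.638 adjusted. It averaged 109.9 ± 38.3 in aged T mice and 138 ± 29.4 in young T mice. Of 9 endothelial markers, 7 had a difference below 0 in this comparison, and their summed count was 2401 to 3312 in aged T mice and 2509 to 4476 in young T mice. The lowest library in both measures was aged T replicate 4, without which the Hspa12b difference was -0.19. In the depletion comparison Hspa12b differed by 0.01, where 8 of 9 endothelial markers lay above 0. The part of the endothelial share in either Hspa12b value was not tested. The median of this family lay nearer to 0 without single libraries. It was -0.04 without aged T replicate 3 or without young T replicate 5, with 8 of 14 members below 0 in either case.

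The 3 members with an unadjusted p under 0.05 all lay higher in aged T mice. Hspbp1, a nucleotide exchange factor of HSP70 that carries the name pattern without being a heat shock protein, had counts of 665, 779, 713, 776 and 861 in aged T mice, against 513.5 to 662 with a median of 623 in young T mice. The groups did not overlap, with aged T replicate 1 just above the highest young T library. Among all genes tested, 0.459% were higher and 0.24% lower without overlap, and Hspbp1 was the only such member. Its difference was 0.31 (SE 0.09), with a limma p of 0.00358 unadjusted and 0.600 adjusted. The gene lies on chromosome 7, 4660521 to 4685068, minus strand, in GENCODE vM21 (GRCm38).

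Dnajc19, a subunit of the motor that draws proteins into mitochondria, had counts of 344, 263, 346, 310.3 and 307 in aged T mice, against 209 to 292 with a median of 242 in young T mice. All 5 aged T libraries lay above the young T median, and the groups overlapped. The difference was 0.36 (SE 0.11), with a limma p of 0.00453 unadjusted and 0.600 adjusted. The gene (chromosome 3, 34056020 to 34081321, minus strand) overlaps Fxr1 on the opposite strand. Libraries were strand-specific per the labels, but whether strand was used in counting is not given in the sources used here.

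Hspe1, the lid of the mitochondrial chaperonin, had counts of 1091, 865, 1403, 919.7 and 1119.6 in aged T mice, against 729 to 1225 with a median of 799 in young T mice. Aged T replicate 3 and young T replicate 3 were the highest of their groups, and all 5 aged T libraries lay above the young T median. The difference was 0.31 (SE 0.14), with a limma p of 0.0445 unadjusted and 0.600 adjusted. Without aged T replicate 3 it was 0.21, and without young T replicate 3 it was 0.41. Hspd1, which shares the promoter stretch printed above, averaged 2914 ± 252 in aged T mice and 2882 ± 304 in young T mice, a difference of 0.02 that was -0.02 without young T replicate 3. Hspd1 and Hspe1 overlap by 112 bases on opposite strands in GENCODE. Over all 9 mitochondrial members the median was 0.12, 7 lay above 0, and none passed. The groups also differed in the share of reads on the ribosomal RNA gene Rn45s, which was 0.747% to 1.34% in aged T mice and 0.35% to 0.795% in young T mice. The correlation of a gene's deviation with its transcript length averaged -0.17 in aged T libraries and 0.17 in young T libraries. The part of either measure in these values was not tested. Leaving out aged T replicate 5 or young T replicate 3, 5 of 9 lay above 0, with medians of 0.04 and 0.075, and without aged T replicate 3 the median was 0.07. Dnaja3, a mitochondrial J-domain protein, was among them at 0.16 (limma adjusted p = 0.600).

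The other groups lay close to 0. The 3 HSP90 members differed by -0.05 (Hsp90ab1), -0.05 (Hsp90b1) and -0.02 (Hsp90aa1). Without young T replicate 5 the values of Hspa8, Hspa5, Hspa9, Hsp90aa1 and Hsp90b1 were all just above 0, between 0.015 and 0.04. The 12 members of the endoplasmic reticulum had a median of -0.03, with 9 below 0. Without aged T replicate 3, aged T replicate 5 or young T replicate 5, 6 of them lay below 0 and the median was above 0. The 12 heat-inducible members had a median of -0.02, with 8 below 0. Of the 25 class C J-domain members tested, 14 lay higher and 11 lower. Dnajc5, the cysteine string protein of synaptic vesicles, differed by -0.06 and Dnajc6, the neuronal auxilin, by -0.06. The lowest class B value was that of Dnajb5, at -0.19 (limma adjusted p = 0.668), and that of class C was Dnajc1, a J-domain protein of the endoplasmic reticulum membrane, at -0.22 (0.668).

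The small heat shock proteins were weakly expressed, and 3 of 7 were tested. Hspb6 had counts of 46.3, 50.8, 39.4, 29.4 and 58.0 in aged T mice, against 31.1 to 34.2 with a median of 33.2 in young T mice. The young T libraries lay close together, and aged T replicate 4 was below all of them, so the groups overlapped. The difference was 0.40 (SE 0.20) (limma adjusted p = 0.600). Hspb6 is known from smooth muscle, and all 8 mural markers lay below 0 in this comparison, with sums of 1228 to 2176 in aged T mice, against 1556 to 3076 in young T mice. All 10 oligodendrocyte markers lay above 0, with sums of 53520 to 97554 in aged T mice, against 45797 to 81011 in young T mice. The part of either cell type in this Hspb6 value was not tested. Hspb1 (the mouse HSP25) averaged 73.7 ± 14.4 in aged T mice and 91.0 ± 44.7 in young T mice, where young T replicate 1 stood alone at 179.7. Its difference was -0.22 with all libraries, and without young T replicate 1 it was 0.00033, so that value rests on 1 library. In that library the summed mural markers (3076) and fibroblast markers (6360) were also the highest of the group; their part in the Hspb1 value was not tested.

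Of the 3 symbols that share only the name pattern, Hspb11 (IFT25, a subunit of the cilium's transport train) gave the highest value of all 64. Its counts were 35.9, 46.3, 64.2, 32.5 and 62.5 in aged T mice, against 21.04 to 50.8 with a median of 31.1 in young T mice. The groups overlapped, and aged T replicates 3 and 5 stood above every young T library. The difference was 0.56 (SE 0.27), with a limma adjusted p of 0.600. All 10 ependymal markers, from the ciliated cells that line the ventricles, also lay above 0, with sums of 362 to 995 in aged T mice, against 331 to 590 in young T mice. The part of these cells in the Hspb11 value was not tested. Hspbap1 differed by 0.01.

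The second comparison asked what changes in an aged hippocampus when CD8+ T cells are depleted. No chaperone passed the test here either. limma called 1 of 13939 genes (0.00717%) and DESeq2 92 of 14024 (0.656%), and neither call held a member. The authors' deposited values also give no member an adjusted p under 0.05. They match the DESeq2 run in the number of genes called (92) and in the smallest adjusted p of a member, so they are no further test. The smallest adjusted p among members was 0.387 by limma, 0.396 by edgeR, 0.414 by limma-voom and 0.134 by DESeq2. At an unadjusted p under 0.05 by limma, 4 members lay lower, against 4.15% of all genes tested, and 2 lay higher, against 4.31%. The number at that level was 6 by each of edgeR, limma-voom and DESeq2 too. Of the 64 members, 43 had a difference below 0, where 50.4% of all genes did, and the median was -0.09 beside -0.00 for all genes. That median rests on 1 library: without CD8a antibody replicate 2 it was 0.00 (0.001), with 32 members below 0 and 32 above.

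Among the HSP70 and HSP110 members, 11 of 14 had a difference below 0 with the CD8a antibody, with a median of -0.14. Leaving out CD8a antibody replicate 2 moved that median to -0.05, with 9 of 14 below 0. Hspa4l, an HSP110-type release factor, had counts of 1060.0, 995, 1274, 1194 and 1271 with the CD8a antibody, against 1578, 1310.3, 1319, 1531 and 1466 with IgG2b. All 5 antibody libraries lay below all 5 IgG2b libraries. Among all genes tested, 1.27% were lower and 0.782% higher without overlap. The difference was -0.32 (SE 0.10), with a limma p of 0.0086 unadjusted and 0.387 adjusted; in the authors' deposited table the adjusted p was 0.170. The gene lies on chromosome 3, 40744495 to 40796103, plus strand.

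Hspa12a, a divergent HSP70 known from neurons, had counts of 3087, 2381, 3687, 3502 and 2937 with the CD8a antibody, against 3730.0, 3608, 4059, 4145 and 4084 with IgG2b. All 5 antibody libraries lay below the IgG2b median, replicate 2 the lowest, and the groups overlapped through antibody replicate 3. The difference was -0.35 (SE 0.12) with a limma p of 0.0112 unadjusted and 0.42 adjusted. Hspa1a had counts of 316, 114, 358, 328 and 289 with the CD8a antibody, against 284, 341, 316, 359.6 and 374 with IgG2b. Antibody replicate 2 stood far below the rest, and the other 4 antibody libraries lay inside the IgG2b range. The difference was -0.35 (SE 0.25) (limma adjusted p = 0.734), and it was -0.05 without that library. With both copies summed it was -0.32 (adjusted p = 0.760). Hspa8 averaged 27680.1 ± 6222 with the CD8a antibody and 28848 ± 1914 with IgG2b. Its difference was -0.09, and 0.04 without CD8a antibody replicate 2. Hsph1, the inducible HSP110, likewise differed by -0.10, and by 0.01 without that library.

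**Figure D2:**
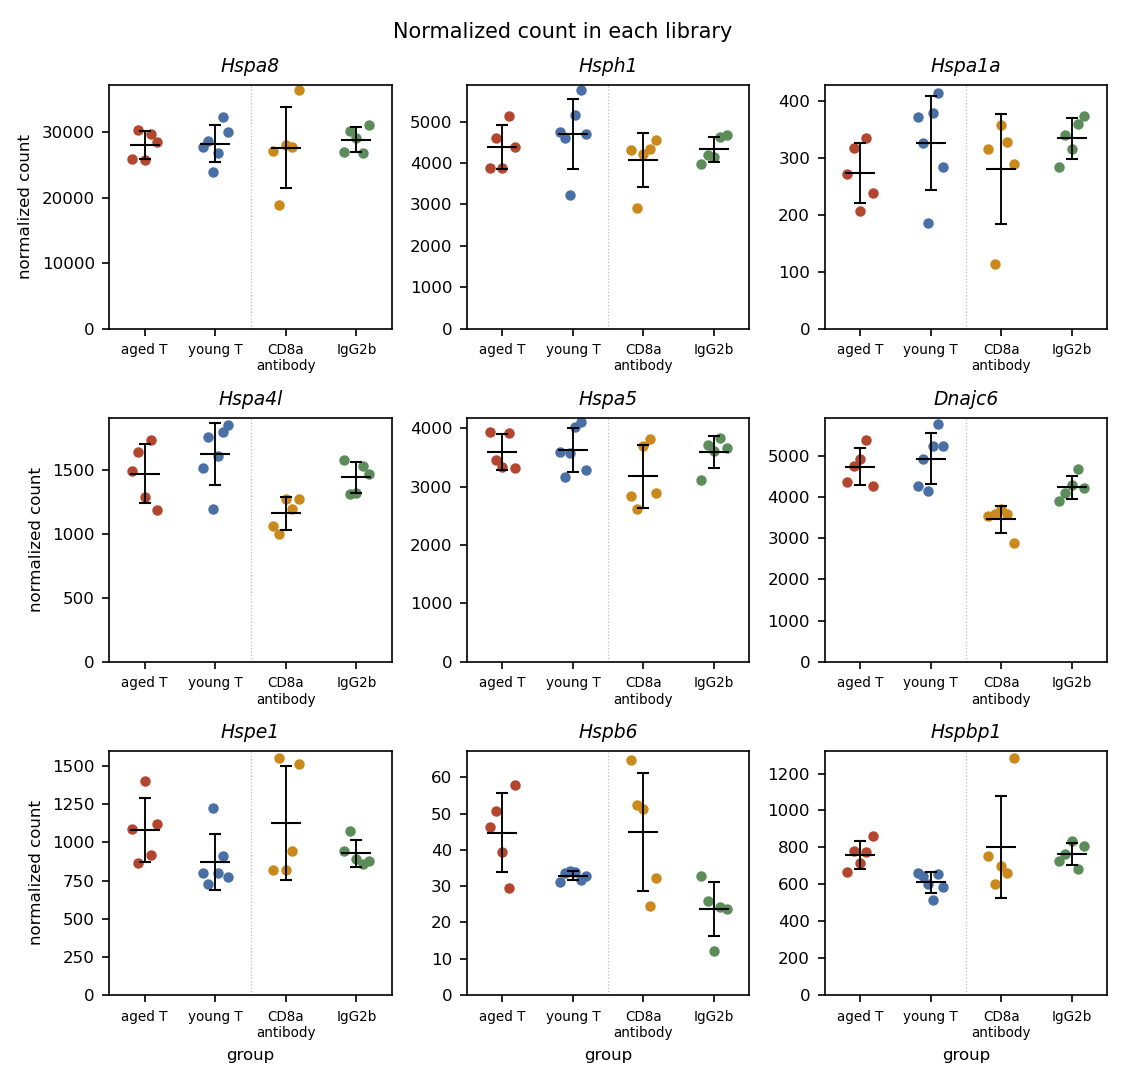
Normalized count of 9 members in each library, with the transfer groups (aged T, young T) left of the dotted line and the depletion groups (CD8a antibody, IgG2b) right of it; each point is 1 library and bars give the mean ± SD. Hspa4l and Dnajc6 show no overlap between the CD8a antibody and IgG2b libraries, Hspbp1 none between aged T and young T, and CD8a antibody replicate 2 is the low Hspa1a point at 114.

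All 12 members of the endoplasmic reticulum had a difference below 0 with the CD8a antibody, with a median of -0.15, and none passed the test. For scale, 50.4% of all genes lay below 0. Cell type markers moved in the same comparison: 8 of 8 microglia markers lay above 0 (median 0.32, 5 at an unadjusted p under 0.05), as did 10 of 10 oligodendrocyte markers (0.39) and 8 of 9 endothelial markers (0.23), while 5 of 6 inhibitory neuron markers lay below 0 (-0.27). Summed microglia counts were 7000 to 8431 with the CD8a antibody, against 5957 to 6676 with IgG2b. The part of these cells in the chaperone values was not tested. The count was 10 of 12 without CD8a antibody replicate 2, 11 of 12 without replicate 1 or without replicate 5, and 12 of 12 without any other library, at medians from -0.20 to -0.10. The 12 values ran from -0.24 (Dnajb14, a J-domain protein of the endoplasmic reticulum membrane) to -0.04 (Dnajb11). Without CD8a antibody replicate 5, Dnajb14 was at -0.06 and Dnajc1 at -0.09, beside -0.22 with all libraries. Hspa5 had counts of 2833, 2616, 3699.5, 3818 and 2895 with the CD8a antibody, against 3117, 3718, 3614, 3835 and 3653 with IgG2b. Antibody replicates 3 and 4 lay among the IgG2b libraries and the other 3 below them, for a difference of -0.19 (SE 0.12) (limma adjusted p = 0.699), and of -0.125 without replicate 2. Hsp90b1 and Dnajc3 (p58IPK), which hold the same promoter element, differed by -0.09 and -0.10; without CD8a antibody replicate 5 the Dnajc3 value was 0.06, and without replicate 2 the Hsp90b1 value was -0.04. Dnajc10 (ERdj5), a reductase that opens wrong disulfide bonds, gave the smallest unadjusted p of this group. Its counts were 847, 859, 1021, 870.3 and 925 with the CD8a antibody, against 952, 1119, 1046, 1082 and 1054 with IgG2b. All 5 antibody libraries lay below the IgG2b median, and the groups overlapped. The difference was -0.22 (SE 0.09), with a limma p of 0.0346 unadjusted and 0.538 adjusted. Dnajb9 (ERdj4), an inducible helper of BiP, averaged 639.6 ± 38.9 with the CD8a antibody and 715 ± 33.5 with IgG2b, a difference of -0.16, and Dnajb11 (ERdj3) differed by -0.04, or 0.03 without CD8a antibody replicate 2.

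The 3 members that act on synaptic vesicles and clathrin coats, Dnajc5, Dnajc6 and Hspa8, had differences below 0 with the CD8a antibody, that of Hspa8 only with replicate 2 included. Dnajc6, the neuronal auxilin, had counts of 3529.8, 3580.0, 3698, 3591 and 2876 with the CD8a antibody, against 3897, 4103, 4292, 4662 and 4208 with IgG2b. All antibody libraries lay below all IgG2b libraries, and antibody replicate 5 was the lowest. The difference was -0.30 (SE 0.10) with a limma p of 0.00975 unadjusted and 0.405 adjusted, and the authors' deposited table gives an adjusted p of 0.134. The gene lies on chromosome 4, 101496648 to 101642799, plus strand. Dnajc5 averaged 4045 ± 639 with the CD8a antibody and 4513 ± 248 with IgG2b, a difference of -0.17 (adjusted p = 0.724 by limma). Antibody replicate 5 was its lowest library, and the difference was -0.065 without it.

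The small heat shock proteins had differences above 0 with the CD8a antibody in all 3 tested members, with a median of 0.30 and none passing. Hspb6 had counts of 64.7, 52.4, 51.4, 24.6 and 32.3 with the CD8a antibody, against 32.8, 26.0, 12.2, 24.3 and 23.6 with IgG2b. Each of the 5 antibody libraries exceeded the IgG2b median of 24.3, replicate 4 only just. Antibody replicates 4 and 5 overlapped the IgG2b range. The difference was 0.88 (SE 0.32), with a limma p of 0.0148 unadjusted and 0.452 adjusted. It was 0.665 without IgG2b replicate 3, the lowest library, and 1.07 without CD8a antibody replicate 4. Hspb1 and Hspb8, a partner of the autophagy co-chaperone Bag3, differed by 0.30 and 0.23. The Hspb8 value was 0.05 without CD8a antibody replicate 2, and the Hspb1 value was 0.16 without replicate 5 and 0.48 without IgG2b replicate 3. Of the 8 mural markers, 6 lay above 0 in this comparison, with a summed count of 936 to 1652 with the CD8a antibody, against 854 to 1091 with IgG2b. All 10 oligodendrocyte markers also lay above 0, with sums of 52369 to 100806 with the CD8a antibody, against 50324 to 64580 with IgG2b. The part of these cells in the Hspb6 value was not tested. Hspb6 (chromosome 7, 30552178 to 30555443, plus strand) also overlaps Lin37 and Proser3 on the opposite strand.

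The 9 mitochondrial members were split, with 5 above and 4 below 0 and a median of 0.08. Without CD8a antibody replicate 2, 8 were above 0, and without CD8a antibody replicate 5 the median was 0.025. Dnajc15, an inner membrane J-domain protein of the import motor, had counts of 309, 589, 297, 295 and 425 with the CD8a antibody, against 303, 264, 261, 276 and 304 with IgG2b. Each of the 5 antibody libraries exceeded the IgG2b median, and replicate 2 was far above the rest. The difference was 0.39 (SE 0.18) with a limma p of 0.0436 unadjusted and 0.572 adjusted, and 0.22 without that library. Dnajc19 and Hspe1 differed by 0.24 and 0.23, while Hspa9 and Hspd1 differed by -0.10 and -0.02, with Hspd1 at 0.04 and Hspa9 at -0.05 without CD8a antibody replicate 2. Dnajc19 was at 0.125 without CD8a antibody replicate 5, and Hspe1 at 0.10 without replicate 2. For Hspe1, antibody replicates 2 and 5 stood at 1557 and 1514, and the other 3 lay between 818 and 941, within or below the IgG2b range of 856 to 1076. Among J-domain members outside these groups, Dnajb5 lay highest at 0.23 and Dnaja1, a main partner of Hspa8, at -0.13, with limma adjusted p of 0.719 and 0.801. Replicate 2 of the antibody group was the lowest library for both, and without it Dnajb5 was at 0.40 and Dnaja1 at -0.04.

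Over the J-domain classes, 4 of 4 class A, 8 of 10 class B and 16 of 25 class C members lay below 0 with the CD8a antibody, where 50.4% of all genes did, and none passed. Without CD8a antibody replicate 2 the counts were 1 of 4, 4 of 10 and 15 of 25. Dnajb1 (HSP40), the inducible partner of HSP70, averaged 860.5 ± 189 with the CD8a antibody and 936 ± 138 with IgG2b, a difference of -0.14 that was 0.005 without CD8a antibody replicate 2. It differed by 0.14 in aged T mice. Dnajb2 and Dnajb6, J-domain proteins known to curb protein aggregation, differed by -0.00 and -0.09 with the CD8a antibody (Dnajb6 at -0.04 without replicate 2), and by 0.09 and 0.02 in aged T mice. Hspa2, an HSP70 known from the testis, differed by 0.04 with the CD8a antibody, at 0.155 without replicate 2, and by -0.01 in aged T mice. Hspb11 differed by 0.44 with the CD8a antibody (limma adjusted p = 0.689), where 9 of 9 tested ependymal markers lay above 0, and Hspbap1 differed by -0.21.

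Inside the groups, some of the heat-inducible members varied together from library to library. Over the 66 pairs of the 12 heat-inducible members, the median Spearman correlation of log2 deviations from the group means was 0.43 in the 11 transfer libraries and 0.38 in the 10 depletion libraries, and 38 and 48 pairs were above 0. Hspa1a and Hsph1 gave 0.93 in the transfer libraries and 0.67 in the depletion libraries. Hspa8 gave 0.98 and 0.67 with Hsp90aa1, 0.87 and 0.71 with Dnaja1, and 0.87 and 0.70 with Hspd1. Across all 2016 pairs of tested members the medians were 0.06 and 0.12. High values were not particular to the heat-inducible members. Hspa12a, which is not among them, gave 0.82 and 0.78 with Hspa1a, and 0.92 and 0.61 with Dnajc6, also outside that list. Hspa8 and Hspb8 gave -0.78 and -0.16. Hspd1 and Hspe1, with their shared promoter stretch, gave -0.40 and -0.03, and Hspa8 and Hspe1 gave -0.52 and 0.02. Over its 11 pairs with the other heat-inducible members, the median was -0.49 and -0.21 for Hspe1, -0.33 and 0.12 for Hspb1, and -0.29 and -0.03 for Dnajb4. In the endoplasmic reticulum Hspa5 gave 0.49 and 0.54 with Hsp90b1, 0.57 and 0.37 with Dnajc3, and 0.14 and 0.03 with Dnajb11. These correlations share libraries and depth, and are descriptions without a test.

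Of the 21 libraries, 3 stood low in the heat-inducible members, which were Hspa1a, Hspa1b, Hspa4l, Hspa8, Hsph1, Hsp90aa1, Hspb1, Hspd1, Hspe1, Dnaja1, Dnajb1 and Dnajb4. The median log2 deviation of the 12 heat-inducible members from their mean over the experiment was -0.41 in CD8a antibody replicate 2, -0.26 in young T replicate 3 and -0.14 in aged T replicate 3. In the other 18 libraries it lay between -0.08 and 0.22. The same 3 libraries had the highest summed count of 7 astrocyte markers in their groups, at 102808 in CD8a antibody replicate 2, 102808 in young T replicate 3 and 109084 in aged T replicate 3. The other libraries lay between 41701 and 78594. CD8a antibody replicate 2 gave Hspa8, Hsp90aa1 and Hsp90ab1 counts of 18875, 14470.4 and 20018, each the lowest of the experiment, and its Hspb8 count of 404 was the highest. The heat-inducible members were below 0 in 10 of 12 cases in the depletion comparison with all libraries (median -0.12), and in 6 of 12 without that library (median -0.01). With any other library of that experiment left out, the count was 9 or 10 of 12. In the transfer comparison the count was 8 of 12 with all libraries. It fell to 6 of 12 when aged T replicate 3 was left out. The same count came from dropping aged T replicate 1, young T replicate 5 or young T replicate 6 alone. It rose to 10 of 12 when young T replicate 3 was left out, and likewise for aged T replicate 2. In the transfer comparison these shifts were thus not particular to the low libraries. Dropping young T replicate 5 put the median just above 0 (0.004). The part of the tissue's cell makeup in these values was not tested.

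**Figure D3:**
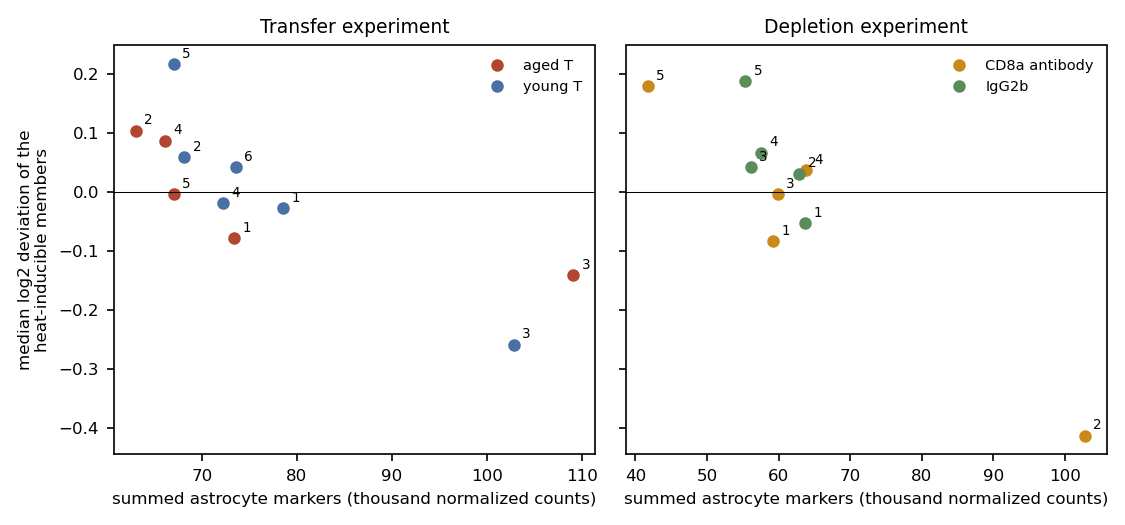
Median log2 deviation of the 12 heat-inducible members from their mean over the experiment (vertical axis) against the summed normalized counts of 7 astrocyte markers (horizontal axis), 1 point a library, numbered by replicate. CD8a antibody replicate 2, young T replicate 3 and aged T replicate 3 lie at the lower right, at -0.41, -0.26 and -0.14. These 3 libraries also had the lowest inhibitory neuron marker sums of their groups.

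The 2 experiments share no libraries, so the members' differences can be set side by side. Of the 64 members, 14 had a difference above 0 in both (21.9%) and 26 below 0 in both (40.6%). Of the 13864 genes tested in both, 28.8% lay above 0 in both and 30.2% below 0 in both. With all libraries, a further 17 members lay above 0 in aged T mice and below 0 with the CD8a antibody, and 7 the other way round. Without CD8a antibody replicate 2, 21 members lay above 0 in both and 22 below 0 in both. The Spearman correlation of both differences over the 64 members was 0.42, beside 0.20 over those 13864 genes. Over the members without that library it was 0.38. These are descriptions across genes that are not independent. The members' differences also went along with transcript length in both comparisons, as given below, and the part of length in the 0.42 was not tested. The transfer comparison varies the age of the T cell donors, while the depletion comparison removes CD8+ T cells. Hspb6, Hspe1 and Dnajc19 lay above 0 in both, at 0.40, 0.31 and 0.36 in aged T mice and 0.88, 0.23 and 0.24 with the CD8a antibody. Hspa1a, Hspa12a and Hspa4l lay below 0 in both, at -0.23, -0.21 and -0.14 in aged T mice and -0.35, -0.35 and -0.32 with the CD8a antibody. Single libraries moved several of these values. In aged T mice, Hspa1a ran from -0.39 to -0.14 and Hspa4l from -0.225 (without young T replicate 3) to -0.07 (without aged T replicate 5). With the CD8a antibody, Hspa1a was at -0.05 and Hspe1 at 0.10 without replicate 2, and Dnajc19 at 0.125 without replicate 5. Hspbp1 differed by 0.31 in aged T mice and 0.01 with the CD8a antibody, but by -0.17 there without CD8a antibody replicate 5. That library stood at 1284, and the IgG2b libraries at 684 to 836.

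**Figure D4:**
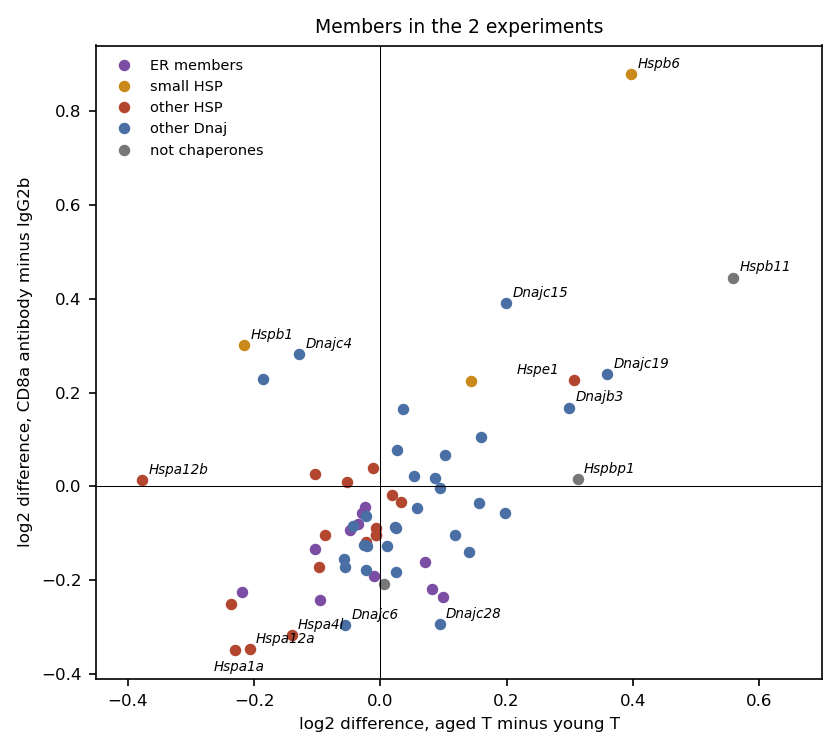
Log2 difference of each of the 64 tested members with the CD8a antibody over IgG2b (vertical axis) against that in aged T over young T mice (horizontal axis), coloured by group. Hspb6 lies at the upper right and Hspa1a at the lower left, and all 12 members of the endoplasmic reticulum lie below 0 on the vertical axis.

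Transcript length went along with these differences. The Spearman correlation of the log2 difference with the length of the longest transcript was -0.49 over 13656 genes and -0.43 over the 64 members in the transfer comparison. In the depletion comparison it was -0.29 over 13440 genes and -0.61 over the members. Hspe1 (0.964 kilobases) and Hspb6 (1.98) are short, and Hspa4l (9.48) and Dnajc6 (5.32) are long. Not every member followed the trend. Dnajc15 (6.19) is long too and lay above 0 in both comparisons, at 0.20 in aged T mice and 0.39 with the CD8a antibody. With the smooth trend on length over all genes subtracted, the median of the endoplasmic reticulum members with the CD8a antibody was -0.11 with 12 of 12 below 0, against -0.15 before, and that of the small heat shock proteins was 0.16, against 0.30 before. In the transfer comparison the trend took the median of the small heat shock proteins to 0.04, against 0.14 before, and that of the HSP70 and HSP110 members to -0.06, against -0.09 before. There 6 of 12 endoplasmic reticulum members then lay below 0, against 9 before. The median over all members was then 0.01 in the transfer comparison and -0.07 in the depletion comparison. CD8a antibody replicate 5 had the steepest length trend of the depletion experiment, with a correlation of -0.63 between a gene's deviation and its length, and aged T replicate 5 that of the transfer experiment, at -0.53. The part of length in any single member's value was not tested.

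Other chaperone systems were read from fixed lists, and none of their genes passed the test in either experiment. The cytosolic chaperonin TRiC and its prefoldin helpers, which fold actin and tubulin, lay above 0 in aged T mice in 15 of 15 genes, with a median of 0.16 and 7 at an unadjusted p under 0.05. Of all genes tested, 51.0% lay below 0, and 4.29% lay higher at that p. All 15 lay above 0 with any library left out, but those at that p were 3 without aged T replicate 3, aged T replicate 5, young T replicate 1 or young T replicate 4, and 4 without young T replicate 2. The Rn45s and length differences between these libraries given with the mitochondrial members apply here too, and 10 of 10 oligodendrocyte markers lay above 0 (median 0.37); their part was not tested. The prefoldin subunit Pfdn6 averaged 1047 ± 108 in aged T mice and 863.5 ± 85.7 in young T mice, a difference of 0.28 (limma adjusted p = 0.600). With the CD8a antibody 6 of these 15 lay above 0, with a median of -0.01; without CD8a antibody replicate 5 it was 2 of 15, and without CD8a antibody replicate 1 it was 10 of 15. Of 32 co-chaperones of HSP70 and HSP90, 20 lay above 0 in aged T mice and 11 with the CD8a antibody. Chordc1, an HSP90 co-chaperone, was the lowest of them with the antibody at -0.26 (adjusted p = 0.540 by limma), and Bag3 had a difference of -0.23 in aged T mice (0.613). Among 25 tested genes of folding and the unfolded protein response in the endoplasmic reticulum, 13 lay above 0 in aged T mice and 10 with the CD8a antibody. Ero1l, an oxidase of that compartment, averaged 512.5 ± 91.3 with the CD8a antibody and 670.4 ± 78.3 with IgG2b, a difference of -0.40 (adjusted p = 0.390 by limma). The unfolded protein sensor Ern1 differed by -0.37 in aged T mice (0.600). Of 12 genes of mitochondrial protein folding and import, 11 lay above 0 in aged T mice (median 0.05) and 8 with the CD8a antibody (median 0.04). Cryab, the alpha-B crystallin related to the small heat shock proteins, averaged 1014 ± 245 in aged T mice and 829.4 ± 188 in young T mice, a difference of 0.29. It averaged 1214 ± 122 with the CD8a antibody and 972.4 ± 117 with IgG2b, a difference of 0.32 (limma adjusted p = 0.423). Of the 4 tested genes among the heat shock factors and their binding protein, 3 lay above 0 in each comparison. The binding protein Hsbp1 differed by 0.26 in aged T mice (limma adjusted p = 0.600) and by 0.175 with the CD8a antibody (0.74). The gene below 0 was Hsf1 in aged T mice, at -0.05, and Hsf2 with the CD8a antibody, at -0.17.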

How the data were processed

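Bulk RNA-seq of the hippocampus was deposited as 2 tables of 24411 genes, 1 for each experiment. The deposited values are normalized counts, a signal of counts divided by a size factor. Per the submitters' processing notes, STAR, RSEM, DESeq2 and mm10 were used, and which step each took is not stated. The tables also hold the authors' mean, log2 fold change (control over treated) with its error, p-value and adjusted p-value, and a test score (the Wald statistic, per the file headers) that was not used. Dividing each column by its smallest value above 0 gave whole reads for 100% of values (relative tolerance 1e-06), and depth was summed from these.

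Each experiment was fitted alone with limma 3.58.1 (trend) in R 4.3.3 on log2(normalized count + 1), for genes with a mean of 10 or more, with Benjamini-Hochberg adjustment over all of them. edgeR 4.0.16, DESeq2 1.42.0 and limma-voom on the recovered reads, pseudocounts of 0.5 and 5, other minimums, TMM scaling, leaving out each library, a length trend and the summed Hspa1 copies were alternatives. The scripts were tested on simulated data. Members named were a list fixed by role, the 4 with the smallest p in each direction and those nearest the minimum; a few others were named after their values were seen. From the other lists, only some of the genes with the smallest p in a direction were named. Members and lists were chosen with earlier results of these data known. Lengths and gene positions are from GENCODE vM21 (GRCm38). No pair of libraries in a group agreed within counting noise. The labels used here do not say how the samples of a group relate, so p-values measure only the spread between these samples, which may be technical.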

Additional observations from a re-analysis of the deposited data

Results flagged for a closer look

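In 10 of 122 sets of values, each 1 member in 1 group of 5 or 6 libraries, a single library stood apart from the rest by Dixon's test; chance flags about 1 in 20 such groups. In CD8a antibody replicate 2, Hspa1a was lowest at 113.7 normalized counts (next 289.1), Hsph1 was lowest at 2910.0 (next 4228) and Hspb8 was highest at 404.5 (next 257.0). In CD8a antibody replicate 5, Dnajc6 was lowest at 2876 (next 3530.0). In aged T replicate 3, Dnaja1 was lowest at 6024 (next 6678).

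In young T replicate 3, Hsp90ab1 was lowest at 22955 normalized counts (next 30493) and Hspe1 was highest at 1225 (next 912.8). In young T replicate 1, Hspb1 was highest at 179.7 (next 93.25). Among the IgG2b libraries, Dnajb2 was highest in replicate 1 at 1641 (next 1414) and Dnajb5 in replicate 4 at 1267 (next 1169).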

How the results depend on the processing

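None of the 64 tested members passed an adjusted p of 0.05 in either comparison under any alternative. These were pseudocounts of 0.5 and 5, no filter or a minimum of 50, TMM scaling, edgeR, DESeq2 and limma-voom on recovered whole reads, and leaving out each library. The smallest adjusted p of a member was 0.134, from DESeq2 for Dnajc6 in the depletion comparison. The number of genes called over the whole table in that comparison was 1 by limma, 92 by DESeq2 and up to 25 with CD8a antibody replicate 5 left out. No alternative moved the median of all genes by more than 0.0251 on the log2 scale.

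Of 61 member results, 39 kept their direction throughout. Signs turned with another tool for Dnaja1 in the transfer comparison (edgeR, -0.00014), Hspd1 in the depletion comparison (edgeR, 0.001) and Dnajb2 there (0.006 with TMM, edgeR or limma-voom). For 22 of these results, from 17 members, the sign turned when 1 library was left out. Their lowest and highest log2 differences were, in the transfer comparison, Hspa8 -0.055 to 0.033, Hspa5 -0.048 to 0.027, Hspa9 -0.072 to 0.033, Hspa2 -0.084 to 0.051, Hsp90aa1 -0.102 to 0.043, Hsp90b1 -0.086 to 0.015, Hspd1 -0.022 to 0.066, Hspb1 -0.299 to 0.00033, Dnaja1 -0.044 to 0.052, Dnajb6 -0.021 to 0.056, Dnajb11 -0.051 to 0.02, Dnajc3 -0.063 to 0.036. In the depletion comparison they were Hspa8 -0.195 to 0.043, Hspa2 -0.017 to 0.155, Hspa12b -0.043 to 0.131, Hsph1 -0.15 to 0.012, Hsp90ab1 -0.047 to 0.117, Hspd1 -0.088 to 0.042, Dnajb1 -0.229 to 0.005, Dnajb2 -0.052 to 0.049, Dnajb11 -0.104 to 0.033, Dnajc3 -0.174 to 0.063. The cause was not tested. No paired analysis was possible because the labels give no replicate number that the groups of a comparison share. Members with mean normalized counts under about 50, such as Hspb6, rest on few reads, which limits the precision of their differences.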
